A study of Mus musculus with 8 samples.

Results

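The 10 genes described here mark or serve the mural cells of blood vessels, the pericytes that wrap capillaries and the smooth muscle cells of larger vessels. They are Gucy1a1, Adra2b, Pdgfrb, Cspg4, Rgs5, Notch3, Acta2, Tagln, Myh11 and Des, found by symbol among 55536 counted genes, of which 34703 had at least 1 count. All 10 passed the filter on low counts, but Adra2b did so only through the saline group. It had 22 to 69 counts per saline tumor and 1 to 6 per treated tumor. Gucy1a1 and Adra2b were selected on the values of the comparison below, because both had been seen lower after treatment. Their values, standard errors and calls are therefore a description, and no p value is given for them. The other 8 are textbook mural genes, and the question was whether they shared that lower level. RNA came from 8 tumors of HCA-1, a mouse hepatocellular carcinoma line grown orthotopically in the liver of male C3H mice, aged 6 to 8 weeks at implantation per the labels (the study's methods give a younger age, of the mice as purchased). The Control tumors (n = 4, replicates 1, 3, 4 and 5) came from mice given saline on day 17, and the IMQNP tumors (n = 4, replicates 1, 2, 3 and 4) from mice given a single intravenous dose of PFSUV-IMQ at 4 mg per kg that day. All tumors were taken 3 h later, and the number of mice behind them is not given in the sources used here. PFSUV-IMQ is imiquimod, a TLR7 agonist, carried in phospholipid-free small unilamellar vesicles. Neither empty vesicles nor free drug were sequenced, so the vesicle and the drug cannot be told apart.

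Pericytes sit on the endothelium of small vessels and are recruited by platelet-derived growth factor B acting on PDGFRβ, while Notch3 signaling from endothelial cells maintains them. Smooth muscle tone is set by contractile proteins of the actin and myosin families, which noradrenaline drives and nitric oxide relaxes through soluble guanylate cyclase and cyclic GMP. In the liver, hepatic stellate cells are the pericyte-like cells of the sinusoids and express several of the same genes. Tumors were sequenced whole, so fewer cells of a type and less RNA per cell cannot be told apart. Total counts were 16883911 to 27687756 for the saline group and 17008151 to 18527613 for the treated group, and counts of every pair of tumors within a group differed by more than sampling noise. Levels are normalized CPM (counts divided by library sizes that edgeR's TMM factors had adjusted) unless TPM is named, and 3 counts correspond to 0.105 to 0.210 CPM, a limit that covers counting error only.

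Each gene is protein coding in the GENCODE M21 annotation of mouse build GRCm38 and was counted over its exons. Gucy1a1 (ENSMUSG00000033910) is at chr3:82092427-82145789 on the minus strand, and Adra2b (ENSMUSG00000058620) is at chr2:127363208-127367221 on the plus strand. Cspg4 spans chr9:56865033-56899870, Rgs5 chr1:169655501-169695813 and Notch3 chr17:32120820-32166852. Acta2 spans chr19:34241090-34255590, Tagln chr9:45929619-45936058, Myh11 chr16:14194535-14291372 and Des chr1:75360329-75368579. Exons of opposite-strand genes cover 67.9% of the Tagln exon bases (Gm48529 and Pcsk7), 6.03% of those of Notch3 (Gm17276) and 5.86% of those of Des (Gm15179). The strand setting of the counting is not given in the sources used here, so reads of those pairs cannot be told apart.

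Promoter windows of 300 bases, running from 250 bases before to 50 bases after the transcription start, were taken from RefSeq for GRCm38.p6 and held an entry for 7 of the 10 genes. The windows are shown for the pair that was lower after treatment. Capitals mark matches to GTGGGAA, the core that the Notch mediator RBPJ binds, on either strand (TTCCCAC on the printed strand is a match on the other). One of the 2 Gucy1a1 windows, chr3:82145024-82145323 on the minus strand, held it at 3 places, with first bases at -110, -60 and +27 from the start. The Adra2b window is chr2:127362929-127363228 on the plus strand and held none.
Gucy1a1: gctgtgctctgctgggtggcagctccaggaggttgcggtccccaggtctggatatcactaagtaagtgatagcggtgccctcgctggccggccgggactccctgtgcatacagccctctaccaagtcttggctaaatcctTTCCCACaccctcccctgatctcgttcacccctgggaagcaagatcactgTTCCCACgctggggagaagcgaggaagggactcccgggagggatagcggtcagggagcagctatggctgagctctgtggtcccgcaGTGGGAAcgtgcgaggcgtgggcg
Adra2b: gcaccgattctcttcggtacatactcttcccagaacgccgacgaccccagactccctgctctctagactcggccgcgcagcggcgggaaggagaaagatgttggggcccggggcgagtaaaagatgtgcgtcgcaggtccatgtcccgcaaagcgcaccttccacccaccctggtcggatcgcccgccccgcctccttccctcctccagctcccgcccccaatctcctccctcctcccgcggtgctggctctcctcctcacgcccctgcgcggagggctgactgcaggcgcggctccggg
GTGGGAA occurred in 6.38% of 32851 promoter windows of that length and at 3 or more places in 5 of them (0.0152%), a count made after the match was seen. None of the other windows of these genes (the second of Gucy1a1 and those of Acta2, Cspg4, Des, Notch3 and Rgs5) held it. The CArG box, the site of serum response factor, was searched in its strict form (CC, then 6 bases of A or T, then GG), which none of these windows held on either strand (1.63% of all windows did), nor did any hold TATAAA (13.6%). With 1 of the 6 middle bases allowed to be C or G, a form searched after the strict one had given no match, the Acta2 window held it at 2 places, ccctatatgg with its first base at -84 and ccttgtttgg at -34. These are the known CArG elements of the Acta2 promoter. That form occurred in 8.50% of all windows, at 2 or more places in 0.679%, and in no other window of these genes. A match is a description of letters and does not show a bound site.

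The levels of the 10 genes differed widely in the saline tumors. Per exon length, Acta2, which encodes smooth muscle α-actin, was first at 74.1 ± 20.4 TPM (SD, n = 4). Rgs5 followed at 38.0 ± 10.9 TPM and Pdgfrb at 20.5 ± 7.74 TPM. Des had 12.7 ± 3.71, Cspg4 8.90 ± 2.18, Gucy1a1 4.33 ± 2.35 and Notch3 4.05 ± 1.91 TPM. Tagln, Adra2b and Myh11 came last with 1.78 ± 0.202, 1.34 ± 0.541 and 0.633 ± 0.120 TPM. The neighbors Rgs5 and Pdgfrb, Pdgfrb and Des, Des and Cspg4, Gucy1a1 and Notch3, and Tagln and Adra2b did not differ beyond their SDs. The abundant actin gene was thus accompanied by low levels of Tagln and Myh11, other genes of smooth muscle. For Tagln, opposite-strand genes cover 67.9% of the exon bases, so how far its low level reflects the counting was not tested. In the PFSUV-IMQ tumors Gucy1a1 stood at position 9 of 10 with 0.852 ± 0.248 TPM, in place of position 6, and Myh11 at position 8 with 1.42 ± 0.724 TPM, in place of position 10. The first 5 positions were held by the same genes in the same order. In the treated tumors Myh11 and Gucy1a1 did not differ beyond their SDs, nor did Tagln and Myh11, nor any neighbors from Rgs5 down to Notch3.

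Gucy1a1 and Adra2b were lower in every PFSUV-IMQ tumor than in any saline tumor, whereas none of the other 8 genes was. Both were chosen by these values, so this is a description. Of all 15998 tested genes, 0.200% were called lower and 2.26% higher (edgeR's quasi-likelihood test, adjusted p below 0.05 with a fold beyond 1 on the log2 scale), and the 2 calls among the 10 genes were those of the chosen pair. The other 8 had 0 calls lower and 0 higher. At an unadjusted p under 0.05 in the same test, 0 of the 8 were lower and 1 was higher (Myh11), where 4.65% and 8.34% of all tested genes were. DESeq2 called 0 of the 8 lower and 1 higher (Myh11), against 0.618% and 2.92% of the genes it tested. The PFSUV-IMQ tumors were all below the saline tumors for 0 of the 8 genes and all above for 2 (Tagln and Myh11), against 3.28% and 6.00% of all tested genes. Log2 fold changes of the 8 genes were below 0 for 4 and above 0 for 4, with a median of 0.20 beside -0.03 over all tested genes. Whether Gucy1a1 differed from the other genes in its change was not tested.

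**Figure D1:**
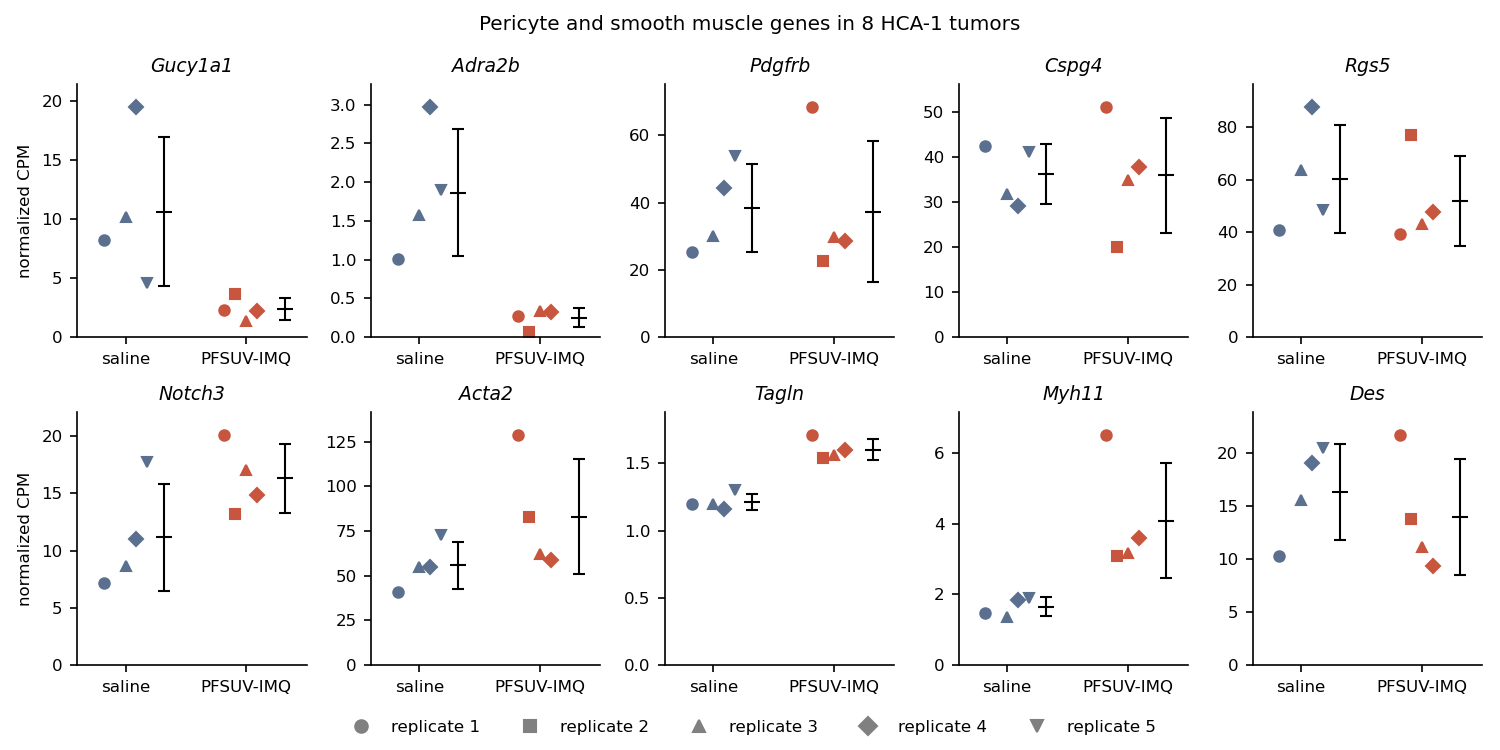
Normalized CPM (y axis, from 0) of the 10 genes in each tumor, for the saline and PFSUV-IMQ groups (4 tumors each). Symbols stand for replicate numbers, which were not used to pair the groups, and bars show mean ± SD. Gucy1a1 and Adra2b, which were chosen for it, and Tagln and Myh11 in the opposite direction show no overlap between groups, and the highest PFSUV-IMQ symbol of 7 of the other 8 genes is replicate 1.

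Gucy1a1 encodes the α1 subunit of soluble guanylate cyclase, the nitric oxide receptor that makes cyclic GMP, and is abundant in pericytes and smooth muscle. Its level was 8.25, 10.2, 19.4 and 4.62 CPM in saline replicates 1, 3, 4 and 5. In PFSUV-IMQ replicates 1, 2, 3 and 4 it was 2.26, 3.63, 1.39 and 2.21 CPM. Each treated tumor lay below the lowest saline tumor, replicate 5, and the saline tumors spread over a wider range. Group means were 10.6 ± 6.30 and 2.37 ± 0.928 CPM (SD, n = 4 each), with a fitted log2 fold change of -2.17 (SE, standard error, 0.46) and a fitted ratio of saline to PFSUV-IMQ of 4.49. Without saline replicate 4, the tumor with most Gucy1a1, the log2 fold change was -1.70, and the lowest with any 1 tumor left out was -2.46. The call of this chosen gene was kept without saline replicate 5 or PFSUV-IMQ replicate 2 and lost without any other tumor. As the gene was chosen by this comparison, these calls describe the fit and give no support for the difference.

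Adra2b encodes the α2B adrenergic receptor, which mediates constriction of some vessels. It had 1.01, 1.58, 2.96 and 1.90 CPM in saline replicates 1, 3, 4 and 5. After PFSUV-IMQ it had 0.276, 0.0699, 0.335 and 0.331 CPM in replicates 1, 2, 3 and 4. The treated tumors were again all below the saline tumors, and few reads carried the value: 22 to 69 counts per saline tumor, 5, 6 and 6 counts in PFSUV-IMQ replicates 1, 3 and 4, and 1 count in replicate 2, which is under the limit of 3 counts. Group means were 1.87 ± 0.819 and 0.253 ± 0.125 CPM (SD, n = 4 each), and the fitted log2 fold change was -2.82 (SE 0.49), with -3.03 to -2.51 when 1 tumor was left out.

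**Figure D2:**
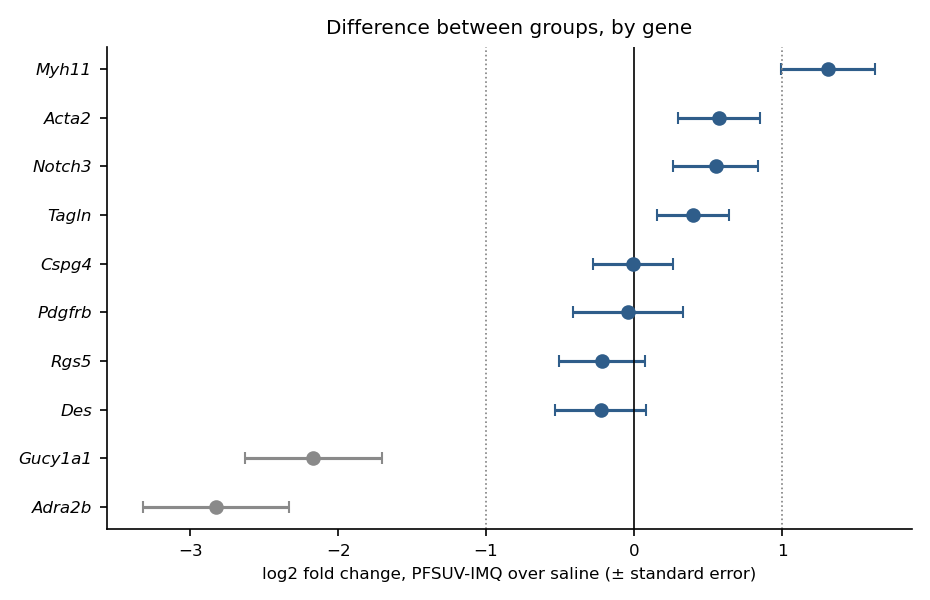
Log2 fold change of PFSUV-IMQ over saline (x axis) with its standard error from edgeR for each gene, in order of size. Grey points are the 2 genes chosen by this comparison, blue points the other 8, and dotted lines mark the fold limit of 1; the blue points run from -0.23 for Des to 1.31 for Myh11.

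Among the pericyte surface and signaling genes, none passed the test. Pdgfrb encodes the receptor through which platelet-derived growth factor B recruits pericytes, and the gene spans chr18:61045150-61085061. It had 25.4, 30.0, 44.4 and 54.0 CPM in saline replicates 1, 3, 4 and 5. After PFSUV-IMQ it had 68.3, 22.8, 29.8 and 28.6 CPM in replicates 1, 2, 3 and 4. The groups overlapped, with the highest and the lowest tumor both in the treated group. The log2 fold change was -0.04 (SE 0.37, adjusted p = 0.982 in edgeR's quasi-likelihood test), and without PFSUV-IMQ replicate 1 it was -0.51.

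Cspg4 encodes NG2, a proteoglycan of the pericyte surface that some tumor cells also make. Its saline values were 42.5, 31.8, 29.2 and 41.2 CPM in replicates 1, 3, 4 and 5. The PFSUV-IMQ values were 51.0, 20.0, 35.0 and 37.8 CPM in replicates 1 to 4. Treated tumors lay on both sides of the saline range, and the log2 fold change was -0.01 (SE 0.27, adjusted p = 0.994, edgeR quasi-likelihood test).

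Rgs5 encodes a regulator of G protein signaling that is a widely used pericyte marker. Saline replicates 1, 3, 4 and 5 had 40.8, 63.7, 87.6 and 48.6 CPM. PFSUV-IMQ replicates 1, 2, 3 and 4 had 39.3, 77.1, 43.1 and 47.8 CPM. The ranges overlapped almost fully, with a log2 fold change of -0.22 (SE 0.29, adjusted p = 0.840 by edgeR's quasi-likelihood test).

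Notch3 encodes the Notch receptor of mural cells. It had 7.14, 8.68, 11.0 and 17.7 CPM in saline replicates 1, 3, 4 and 5. After PFSUV-IMQ it had 20.1, 13.2, 17.1 and 14.8 CPM in replicates 1, 2, 3 and 4. Saline replicate 5 reached into the treated range while the other saline tumors lay below it. The log2 fold change of 0.55 (SE 0.29) did not pass the test (adjusted p = 0.495, edgeR quasi-likelihood test).

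The contractile and filament genes did not pass either, although Myh11 came near. Myh11 encodes the heavy chain of smooth muscle myosin, the most specific marker of mature smooth muscle among these genes. It had 1.48, 1.37, 1.85 and 1.90 CPM in saline replicates 1, 3, 4 and 5. After PFSUV-IMQ it had 6.51, 3.07, 3.18 and 3.58 CPM in replicates 1, 2, 3 and 4. All treated tumors lay above all saline tumors, from 32 to 118 counts per tumor over both groups. The log2 fold change was 1.31 (SE 0.32, adjusted p = 0.0724 in edgeR's quasi-likelihood test). DESeq2's Wald test called it higher (adjusted p = 0.00624, range over 15 alternative fits 0.00624 to 0.223), and with any 1 tumor left out of the edgeR fit the log2 fold change was 0.99 to 1.41 and never called. The lowest value was without PFSUV-IMQ replicate 1.

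Acta2 was the most abundant of the contractile genes. Saline replicates 1, 3, 4 and 5 had 40.7, 55.0, 54.6 and 72.6 CPM. PFSUV-IMQ replicates 1, 2, 3 and 4 had 129, 83.0, 62.0 and 58.5 CPM. The groups overlapped between 58.5 and 72.6 CPM, and the log2 fold change was 0.58 (SE 0.28, adjusted p = 0.440, edgeR quasi-likelihood test). Without PFSUV-IMQ replicate 1 it was 0.28.

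Tagln encodes transgelin, an actin-binding protein of smooth muscle. It had 1.20, 1.19, 1.16 and 1.30 CPM in saline replicates 1, 3, 4 and 5. After PFSUV-IMQ it had 1.71, 1.54, 1.56 and 1.60 CPM in replicates 1, 2, 3 and 4. The groups were close together but did not overlap, on 22 to 34 counts per tumor, and the log2 fold change of 0.40 (SE 0.24) did not pass (adjusted p = 0.576, edgeR quasi-likelihood test).

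Des encodes desmin, the intermediate filament of muscle cells that also marks pericytes and stellate cells. It had 10.3, 15.6, 19.0 and 20.5 CPM in saline replicates 1, 3, 4 and 5. After PFSUV-IMQ it had 21.7, 13.8, 11.2 and 9.32 CPM in replicates 1, 2, 3 and 4. The treated group held both the highest and the lowest tumor, and the log2 fold change was -0.23 (SE 0.31, adjusted p = 0.844 by edgeR's quasi-likelihood test).

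Variation among tumors of the same group was measured on deviations of log2 CPM from the group mean, which the choice of genes did not use. Over 45 pairs of genes in 8 tumors, Pearson correlations ran from -0.886 to 0.956 with a median of 0.37. P values came from an exact two-sided permutation test over all within-group orderings and were adjusted over 55 relations, the 45 pairs and the relation of each gene to hepatocyte markers. None passed an adjusted p of 0.05, and 8 pairs had an unadjusted p under 0.05. Acta2 and Des had r = 0.956 (Spearman's rho 0.905, exact permutation p = 0.00347 and 0.0139, adjusted 0.0716 and 0.153), and r = 0.906 without the 2 tumors farthest in Acta2. Pdgfrb and Notch3 had r = 0.823 (rho 0.929, exact permutation p = 0.00174 and 0.00347, adjusted 0.0716 and 0.0955), and r = 0.790 without the 2 farthest tumors. Rgs5 and Cspg4 moved in opposite directions, with r = -0.886 (rho -0.952, exact permutation p = 0.00521 and 0.0104, adjusted 0.0716 and 0.153), and r = -0.731 without the 2 farthest. Pdgfrb and Myh11 had r = 0.943 (rho 0.833, exact permutation p = 0.0156 and 0.0347, adjusted 0.136 and 0.239), and r = 0.794 without the 2 farthest. Pdgfrb and Des had r = 0.834 (rho 0.690, exact permutation p = 0.0312 and 0.0903, adjusted 0.172 and 0.393), and r = 0.518 without them. Some other relations rested on those tumors. For Pdgfrb and Acta2 r went from 0.811 to 0.170. For Myh11 it went from 0.754 to 0.261 with Des and from 0.621 to 0.322 with Notch3. For Tagln it went from 0.761 to -0.341 with Pdgfrb and from 0.527 to -0.838 with Des.

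**Figure D3:**
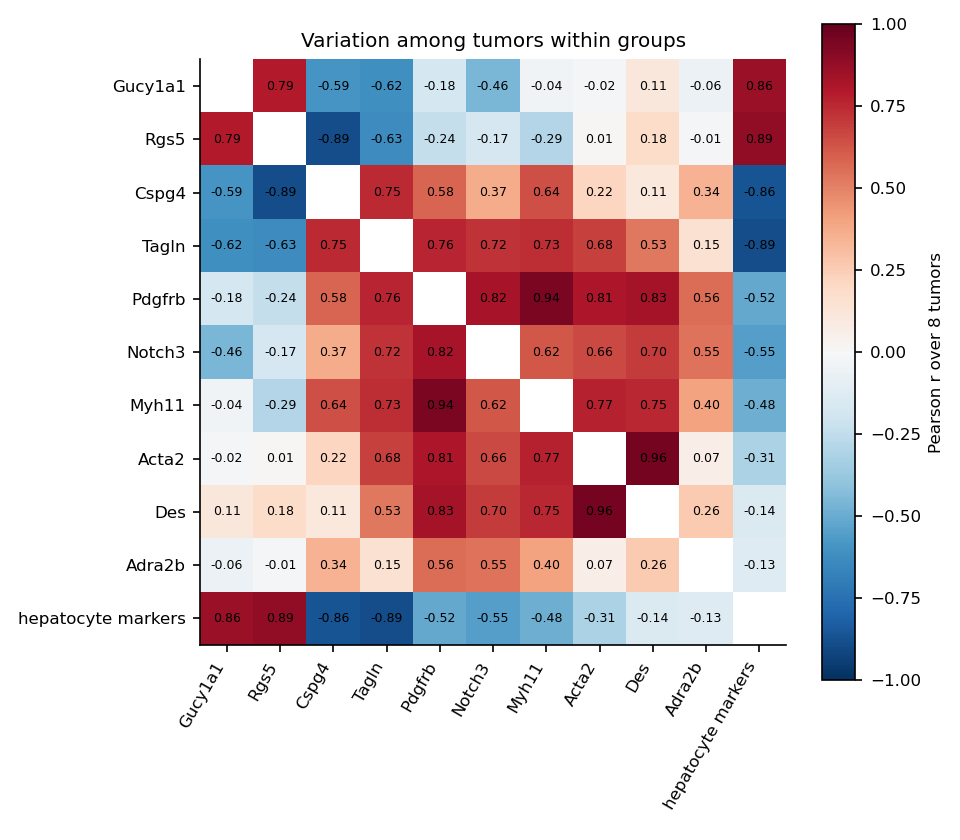
Pearson r over 8 tumors (color, from -1 to 1, with the value in each cell) between deviations of log2 CPM from the group means, for each pair of the 10 genes and for the mean of 17 hepatocyte markers. Tagln, Pdgfrb, Notch3, Myh11, Acta2 and Des have positive values with each other, from 0.527 to 0.956, of which several fall when the 2 farthest tumors are left out, and Gucy1a1 has its highest value among the genes with Rgs5. None of these passed an adjusted p of 0.05.

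Gucy1a1 had its highest correlation among the 10 genes with Rgs5 (r = 0.792, rho 0.714, exact permutation p = 0.0469 and 0.101, adjusted 0.208 and 0.393), and r = 0.764 without the 2 farthest tumors. With Pdgfrb it had r = -0.18 and with Adra2b r = -0.06. PFSUV-IMQ replicate 1 was the highest of its group for 7 of the 8 genes other than the chosen pair and the lowest for Rgs5, and saline replicate 5 was the highest of its group for 6 of them. Within a tumor, the ratio of Gucy1a1 to Rgs5 CPM was 0.0950 to 0.222 after saline and 0.0323 to 0.0575 after treatment. The ratio of Gucy1a1 to Pdgfrb was 0.0855 to 0.437 and 0.0331 to 0.160, which overlapped. Both ratios reuse the values by which Gucy1a1 was chosen, so they are a description only. Among 11499 genes with a mean of at least 5 CPM, those whose deviations were most like those of Gucy1a1 over the 8 tumors were Papss2 (r = 0.995), Abcb10 (0.990), Aldh9a1 (0.989), Cdh1 (0.985) and Casc4 (0.985). Of these 5 genes none was called between groups, with log2 fold changes of -0.39 to -0.003.

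The level of hepatocyte markers varied among the tumors. Within groups that level correlated with some of these genes, but no such relation passed an adjusted p of 0.05 in the permutation test. Whether the marker RNA came from liver tissue in the samples or from the hepatocellular carcinoma cells was not tested. The summed level of 17 hepatocyte markers was 5537 to 46250 CPM in the saline group, highest in replicate 4, and 9047 to 51390 CPM in the treated group, highest in replicate 2. None of these markers was called between groups, and none was at 0 in all tumors. Within groups, hepatocyte marker level and Gucy1a1 had r = 0.861 (rho 0.786, exact permutation p = 0.0226 and 0.0764, adjusted 0.155 and 0.393), and r = 0.591 without the 2 farthest tumors. For Rgs5 it was 0.890 (rho 0.857, exact permutation p = 0.0174 and 0.0243, adjusted 0.136 and 0.191), and 0.589 without the 2 farthest. For Cspg4 it was -0.865 (rho -0.905, exact permutation p = 0.00521 and 0.0139, adjusted 0.0716 and 0.153), and -0.722 without them. For Tagln it was -0.889 (rho -0.952, exact permutation p = 0.0122 and 0.00347, adjusted 0.134 and 0.0955), and -0.895 without them. With the mean log2 CPM of these markers as a covariate, an alternative added after the data were seen, the log2 fold change of Gucy1a1 was -2.30 and that of Adra2b -2.83. Myh11 was then called higher (1.36, adjusted p = 0.0173 in edgeR's quasi-likelihood test), and Rgs5 was at -0.39 (adjusted p = 0.187, same test).

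**Figure D4:**
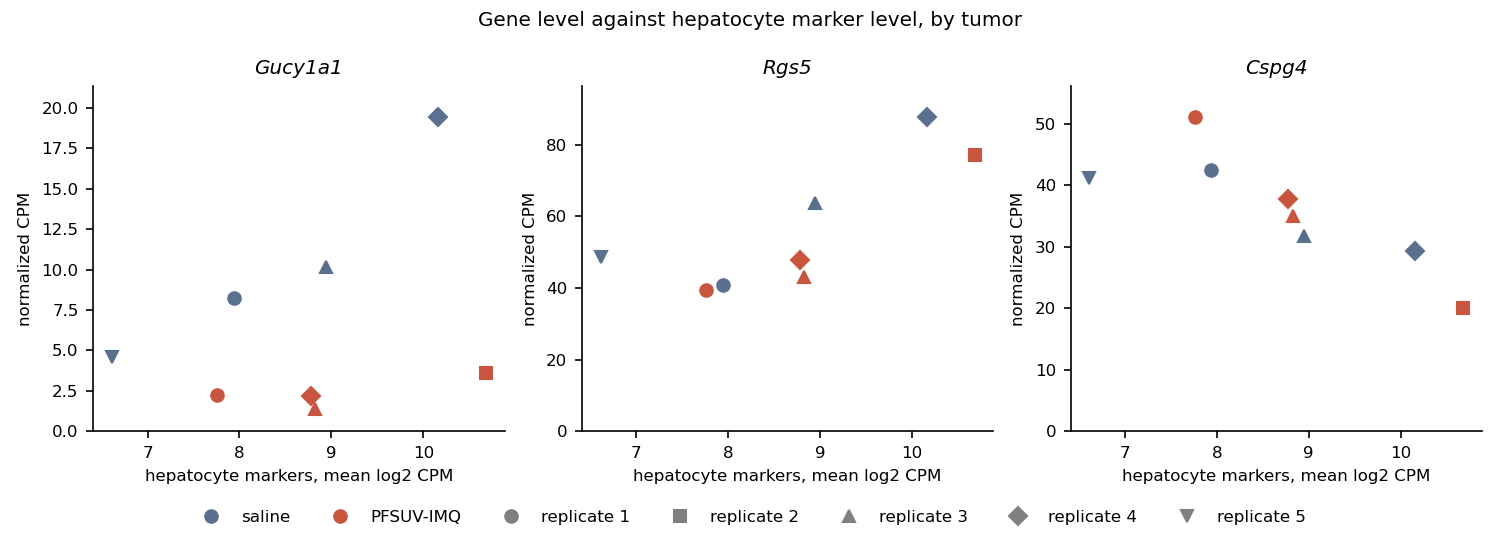
Normalized CPM of Gucy1a1, Rgs5 and Cspg4 (y axes, from 0) against the mean log2 CPM of 17 hepatocyte markers (x axis), with 1 symbol per tumor and color for the group. Within each color Gucy1a1 and Rgs5 are highest in the tumor with the highest hepatocyte marker level, saline replicate 4 and PFSUV-IMQ replicate 2. Cspg4 is lowest there.

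In the nitric oxide and cyclic GMP pathway around Gucy1a1, 18 of 24 genes were tested and 1 was called higher, where 2.26% of all tested genes were. The only gene called lower was Gucy1a1, which was chosen by this comparison, so that call says nothing about the pathway. The median log2 fold change was -0.11 with Gucy1a1 included. The gene called higher was Nos2, the inducible nitric oxide synthase of activated macrophages and other cells. It had 5.41 to 11.1 CPM in the saline tumors and 64.4, 388, 29.3 and 35.7 CPM in PFSUV-IMQ replicates 1, 2, 3 and 4. Its log2 fold change was 4.03 (SE 0.85, adjusted p = 0.0389 in edgeR's quasi-likelihood test). Without PFSUV-IMQ replicate 2 it was 2.43, and the call was lost without any 1 of the 4 saline tumors (adjusted p = 0.0864 to 0.129, same test). Gucy1b1, the β1 subunit with which GUCY1A1 pairs, had 4.24, 6.78, 9.58 and 3.26 CPM in saline replicates 1, 3, 4 and 5. It had 3.42, 2.45, 1.67 and 3.47 CPM in PFSUV-IMQ replicates 1, 2, 3 and 4. Saline replicate 5 lay within the treated range, and the log2 fold change of -1.11 (SE 0.39) did not pass (adjusted p = 0.240, edgeR quasi-likelihood test). The ratio of Gucy1a1 to Gucy1b1 CPM ran from 1.42 to 2.03 after saline and from 0.635 to 1.49 after treatment. That ratio also reuses the values by which Gucy1a1 was chosen. Npr3, a natriuretic peptide clearance receptor, had a log2 fold change of -1.05 (adjusted p = 0.559, same test).

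The partners of the other genes gave few calls (of all tested genes, 0.200% were called lower and 2.26% higher). Of 7 PDGF ligands and receptors, all tested, 0 were called in either direction and the median log2 fold change was -0.06; Pdgfb, the ligand of PDGFRβ, was at -0.28, Pdgfd at -0.52 and Pdgfrl at 0.94. Of 17 Notch ligands, receptors and targets, 14 were tested, 0 were called lower and 1 higher, and the median was -0.02. The latter was Dll1, a Notch ligand, whose mean was 6.26 ± 1.55 CPM in saline tumors and 14.2 ± 3.19 CPM in treated tumors (SD, n = 4 each), with log2 fold change 1.19 (adjusted p = 0.0381 in edgeR's quasi-likelihood test). That call was kept without saline replicate 5 or PFSUV-IMQ replicate 1 and lost without any other tumor (adjusted p = 0.0805 to 0.128, same test). An opposite-strand gene covers 20.6% of its exon bases. Dll4, the endothelial ligand, was at -0.61 and Heyl, a Notch target in mural cells, at -0.60, and neither passed. Among 9 adrenergic receptors 6 were tested, with a median of -0.77 that includes Adra2b. Adra2b was the only call, but it was chosen by this comparison, so that call says nothing about the family. Adra1b, Adrb1 and Adrb3 were at -0.85, -0.70 and -1.01 and did not pass, and both Adra1b (0.53) and Adrb3 (-0.11) rested on saline replicate 4, without which they had these values. None of 8 tested R4 RGS genes, the subfamily of Rgs5, was called (median -0.34), with Rgs1 at 0.84 (0.18 without PFSUV-IMQ replicate 2), Rgs8 at -0.69 and Rgs18 at -1.22. None of 6 tested genes of serum response factor and its cofactors was called (median 0.08), with Mrtfb at -0.49, Tead1 at 0.31 and Gata6 at 0.14, which was -0.55 without PFSUV-IMQ replicate 2 and 0.57 without saline replicate 4. Myocd, the cofactor that drives the smooth muscle program, had 0 to 5 counts per tumor and was not tested.

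Other markers of mural cells and of the cells around them were read as a check on the cell types that the genes stand for. Of 19 other pericyte markers 16 were tested, with a median log2 fold change of 0.13. In edgeR 0 were called lower and 2 higher, where 0.200% and 2.26% of all tested genes were. P2ry14, a receptor for UDP-glucose, averaged 12.8 ± 1.56 CPM in saline tumors and 32.7 ± 11.6 CPM in treated tumors (SD, n = 4 each), which gave a log2 fold change of 1.35 (adjusted p = 0.0198 in edgeR's quasi-likelihood test). Gja4, the gap junction protein connexin 37 that endothelial cells also make, had 2.23 ± 0.430 and 7.49 ± 2.85 CPM, a log2 fold change of 1.74 (adjusted p = 0.0230, same test). The call of P2ry14 was lost without any 1 of the 4 saline tumors (adjusted p = 0.0502 to 0.0801, edgeR), and that of Gja4 without saline replicate 1, 3 or 5 or PFSUV-IMQ replicate 1 (adjusted p = 0.0541 to 0.0876, edgeR). Both genes were highest in PFSUV-IMQ replicate 2. Abcc9, a potassium channel subunit of pericytes, ranged over 15.6 to 27.0 CPM in saline tumors and 9.48 to 14.1 CPM in treated tumors. These groups did not overlap, and its log2 fold change of -0.85 did not pass (adjusted p = 0.0814 by edgeR's quasi-likelihood test). The summed level of the pericyte list ran from 393 to 1277 CPM in saline tumors and from 560 to 1971 CPM in treated tumors, of which Vtn, also a major hepatocyte product, made 137 to 1010 and 281 to 1678 CPM. Higd1b, a specific pericyte marker, was at 0 to 3 counts per tumor. Of 21 other contractile genes 20 were tested and 0 were called, with a median of 0.04 and summed levels of 2581 to 3215 CPM (saline) and 2397 to 3372 CPM (PFSUV-IMQ). Most of that sum was Cald1, Flna, Myl6 and Tpm1, with means of 889, 547, 513 and 444 CPM in saline tumors. The sum therefore says little about genes of the list at low levels. Cnn1, calponin 1 of smooth muscle, had 0.652 to 0.783 CPM in saline tumors and 1.21 to 2.44 CPM in treated tumors, for a log2 fold change of 1.11 (adjusted p = 0.128 by edgeR's quasi-likelihood test). Pln was at 1.52 and Pcp4l1 at -1.56 and neither passed. Opposite-strand genes cover 64.7% of the Pln exon bases, and Pln had 0 to 36 counts per tumor. Without saline replicate 4, Pcp4l1 was at -0.75.

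Markers of hepatic stellate cells and fibroblasts were all tested (21 of 21), with 0 calls in edgeR, a median log2 fold change of -0.06 and summed levels of 10960 to 17360 CPM (saline) and 10950 to 23140 CPM (PFSUV-IMQ), highest in replicate 1. The 3 genes of the list with the largest change were lower. Lrat, the enzyme that stores retinol in quiescent stellate cells, had 1.48, 4.50, 6.79 and 2.82 CPM in saline replicates 1, 3, 4 and 5 and 0.828, 1.89, 0.781 and 0.992 CPM in PFSUV-IMQ replicates 1, 2, 3 and 4. Tcf21, a transcription factor of fibroblast precursors and stellate cells, had 3.10 to 8.12 CPM and 1.21 to 1.96 CPM. Pth1r, a hormone receptor of stellate cells, had 3.00 to 10.0 CPM and 1.38 to 3.09 CPM. Only Tcf21 showed no overlap between groups among these 3 genes. Their log2 fold changes were -1.81, -1.57 and -1.54, with adjusted p = 0.117, 0.0592 and 0.108 in edgeR's quasi-likelihood test. The same 3 genes were called lower by DESeq2, with adjusted p = 0.0122, 0.00238 and 0.00998. Over all genes it tested, DESeq2 called 0.618% lower and 2.92% higher. DESeq2 also called 1 gene of the list higher, Timp1, a protease inhibitor, at 101 to 173 CPM after saline and 184 to 340 CPM after treatment without overlap (log2 fold change 1.01, adjusted p = 0.00977 in DESeq2 and 0.0699 in edgeR). The collagen gene Col1a1 was at 0.87 and Ecm1 at 0.75 on the log2 scale, and neither passed in edgeR or DESeq2. The list had 11 genes below 0 and 10 above, and whether any of them changed with Gucy1a1 was not tested.

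**Figure D5:**
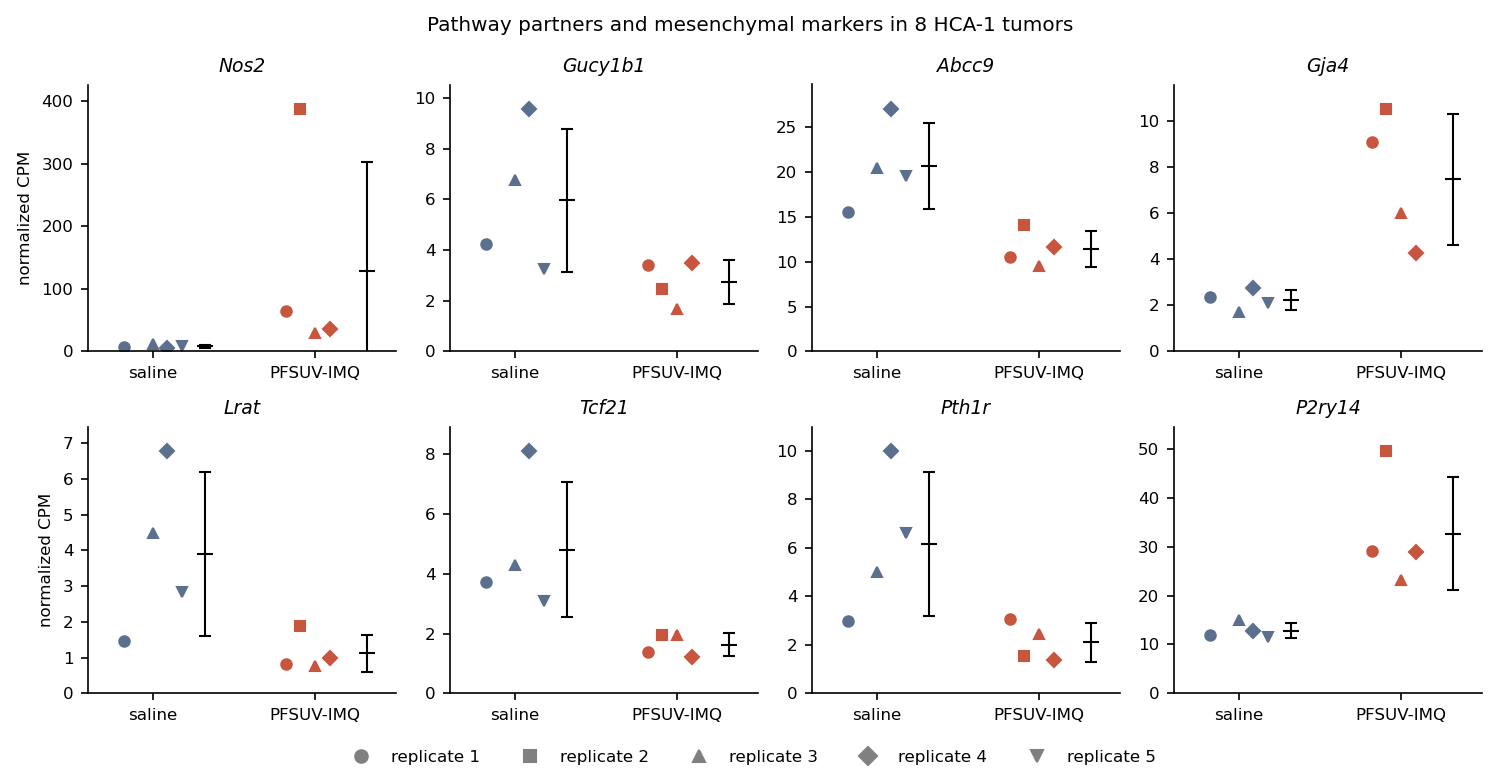
Normalized CPM (y axis, from 0) of Nos2, Gucy1b1, Abcc9, Gja4, Lrat, Tcf21, Pth1r and P2ry14 in each tumor, with symbols for replicate numbers and bars for mean ± SD of 4 tumors. The lower bar of Nos2 after PFSUV-IMQ reaches below 0 and is cut at the axis. Nos2, Gja4 and P2ry14 lie higher after PFSUV-IMQ and Abcc9 and Tcf21 lower without overlap, while Gucy1b1, Lrat and Pth1r overlap.

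Endothelial cells, striated muscle and mesothelium gave no calls. All 15 endothelial markers were tested, with a median log2 fold change of -0.16 and summed levels of 264 to 405 CPM (saline) and 277 to 370 CPM (PFSUV-IMQ). Kdr was at -0.63, Tek at -0.66 and Stab2, of sinusoidal endothelium, at -0.83, and none passed. Without saline replicate 4 these 3 genes were at -0.30, -0.23 and -0.40. Of the endothelial markers 12 were below 0 and 3 above, beside 8637 and 7361 of all tested genes. Of 16 striated muscle markers only 3 had enough counts to be tested and 3 (Myh4, Myh6 and Tnnc2) were at 0 in all tumors, and the skeletal muscle myosins Myh1 and Myh2 had at most 2 counts in a tumor. The summed level of that list, 192 to 521 CPM (saline) and 149 to 532 CPM (PFSUV-IMQ), was nearly all Tnnt2, at 188 to 518 and 143 to 528 CPM. Mylpf was at -0.27, Ttn at 0.78 and Tnnt2 at 0.16 on the log2 scale, the last turning to -0.08 without PFSUV-IMQ replicate 3. Of 7 mesothelial markers 4 were tested (median 0.27), with summed levels of 148 to 238 and 173 to 334 CPM, Msln at 0.53, Wt1 at 1.08 and Gpm6a at -0.05. Without PFSUV-IMQ replicate 2 these 3 genes were at 0.29, 0.19 and -1.33. Among the hepatocyte markers (median 0.22), Tat was at 1.69, Pck1 at 2.02 and Hamp at 1.18 and none passed; without PFSUV-IMQ replicate 2 they were at 0.56, 1.15 and 0.42. The part of these cell types in the values of the 10 genes was not tested beyond the hepatocyte covariate.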

How the data were processed

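Total RNA of 8 tumors was sequenced from KAPA mRNA HyperPrep libraries. Counts per gene, as deposited by the authors, were the input here. The authors also deposited a DESeq2-normalized signal table, whose symbols selected the 10 genes and which gave no tested value. The authors' methods name TopHat and HTSeq, whereas the submitters' processing notes list Trimmomatic 0.38, HISAT2 2.1.0 and featureCounts 2.0.0. The build is not given in the sources used here; identifiers were matched to GENCODE M21 (GRCm38).

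Counts were fitted for all genes in R 4.3.3 with edgeR 4.0.16 (TMM, filterByExpr by group, quasi-likelihood test, Benjamini-Hochberg adjustment over 15998 genes; calls below an adjusted p of 0.05 with log2 fold changes beyond 1). TPM were computed from counts and exon lengths. Correlations used log2 CPM with a prior count of 2. Alternatives comprised DESeq2 1.42.0, other scaling factors, other filters, no fold limit, a replicate term, a prior count of 0.5, each tumor left out, and a hepatocyte covariate added after the data were seen. Code was tested on simulated data. Python 3.11.15 and pandas 2.3.3 prepared the tables.

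The 10 genes and the other lists were chosen with earlier results of these data known. Genes named are the 10, the called genes and the 3 largest changes of each list, and the 5 genes most like Gucy1a1. Higd1b, Myocd, Vtn, Myh1, Myh2, Myh4, Myh6, Tnnc2, Timp1, Col1a1, Ecm1, Cald1, Flna, Myl6 and Tpm1 were named after their values were seen. Neither the labels nor the methods say that each tumor came from a separate mouse, so p values measure the spread between these samples, which may be technical in part. No sequencing batch is given. Both groups have replicate numbers 1, 3 and 4, but the mice differed in treatment, so same-numbered tumors are of different mice. What else the numbers stand for is not given in the sources used here. The main fit did not pair the tumors, and a replicate term was only an alternative.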

Additional observations from a re-analysis of the deposited data

Results flagged for a closer look

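In PFSUV-IMQ replicate 1, Pdgfrb was at 68.3 CPM, far from the other tumors of its group, which lay between 22.8 and 29.8 CPM. Its gap to the nearest of them was 0.845 of the range of the group, above the critical value of Dixon's test for 4 samples. Myh11 in the same tumor was at 6.51 CPM, with the others at 3.07 to 3.58 CPM and a gap of 0.852 of the range. The 10 genes gave 20 groups of 4 tumors, and chance flags about 1 in 20 groups. Summed stellate cell and fibroblast markers were also highest in that tumor, at 23140 CPM, and their part in these values was not tested.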

How the results depend on the processing

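Over the 32 genes called lower, 362 called higher, 2 of the 10 mural genes called lower (those chosen by this comparison), 0 called higher, 0 genes of the other lists called lower and 4 called higher, the counts depended on the test and on single tumors. The counts of all genes lower were 63 with no filter, 131 with DESeq2, 267 with the replicate block and 323 with the hepatocyte covariate, and those higher 619 with DESeq2. Of the 10 genes, 1 was lower with at least 10 counts in every tumor, where Adra2b was not tested, and 1 (Myh11) was higher with DESeq2 (1.32) and with the hepatocyte covariate (1.36). Genes of the other lists called lower were 1 with upper-quartile factors, 2 with no filter, 3 with DESeq2, 2 with the replicate block and 7 with the hepatocyte covariate, under which 7 were higher. With each tumor left out, counts were 8 to 38 genes lower and 197 to 375 higher, 0 to 2 of the 10 genes lower (0 without PFSUV-IMQ replicate 4), and 0 to 1 of the other lists lower and 0 to 3 higher (0 without saline replicate 1 or 3). The causes were not tested. Deviations of same-numbered tumors correlated at 0.294, -0.268 and -0.316, and none of these tumors correlated best with its own number. The direction of 7 of the 10 genes was the same in every fit, and it turned in some for Pdgfrb, Cspg4 and Rgs5, none of which was called. The median correlation of pairs, 0.37, was 0.41 with a prior count of 0.5 and 0.24 to 0.52 with each tumor left out. Low counts limit Adra2b, Tagln and Myh11.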
